A study of Mus musculus with 2 samples.

Results

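Dying cells in the retina are taken up by phagocytes that read lipids on their surface, and 7 genes of that recognition step were followed here out of the 27998 gene identifiers in the deposited tables: the receptors Axl and Mertk, the bridging ligands Gas6 and Pros1, the integrin subunits Itgav and Itgb5, and the bridge Mfge8. They were chosen by name and role, with earlier results of these data known. All 7 were measured, and all are reported whatever their values. Retinal cells carrying a Cx3cr1-YFP reporter were sorted live from male mice aged 8 months of the strain CB6F1. Cx3cr1-YFP, and each group was 1 pool of retinas from 5 to 8 mice and 1 single-cell library made with the 10x Genomics kit that reads transcript ends. The control group had no light damage. The other group is described as adapted to the dark overnight, with pupils dilated by atropine and phenylephrine, exposed to LED light of 10 klux for 4 h, and taken after 5 days under normal lighting. The same treatment text stands on both samples, so which of these steps short of the light the controls had is not given in the sources used here.

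Axl and Mertk belong to the TAM family of receptor tyrosine kinases, named for Tyro3, Axl and Mertk. They do not bind a dying cell directly: Gas6 and Pros1 (protein S) hold phosphatidylserine exposed on it with one end and the receptor with the other. Gas6 is known as a ligand of all the TAM receptors, and Pros1 of Tyro3 and Mertk but not of Axl. Itgav and Itgb5 encode the chains of the integrin alpha v beta 5, which takes up cargo through Mfge8, a secreted protein that also binds phosphatidylserine. In the eye, Mertk and this integrin are best known from the pigment epithelium, which clears the shed tips of photoreceptors. In brain and retina, Mertk is known as a receptor of resting microglia and Axl as one that rises in inflamed tissue and with interferon.

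Cells were sorted into 3 classes by genes that are not among the 7. Microglia, the resident macrophages of the retina, had at least 20 unique molecular identifiers (UMIs, each standing for 1 captured transcript) per 10000 of P2ry12, Tmem119, Siglech, Gpr34 and P2ry13. Perivascular macrophages, which lie along vessels, had at least 10 of Mrc1, F13a1, Cd163, Lyve1 and Cbr2, and other macrophages had under 10 of both sums. Of 3820 control and 6427 light-damaged cells kept, 3377 and 4395 were microglia, 52 and 83 perivascular and 244 and 1166 other macrophages. Cells that met both cutoffs, 5 and 2, and cells with 10 to 20 of the microglia genes and few perivascular ones, 142 and 781, stayed outside the classes. Median depth was 4783 and 6783 UMIs in microglia, 7034.5 and 9255 in perivascular macrophages and 5230 and 9808.5 in other macrophages, so the light-damaged library was the deeper in each. The libraries held 20056338 and 58187149 UMIs over 4003 and 6821 barcodes and shared 47 barcode strings, 42 of them among the cells kept in both.

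Markers that the class rules did not use were checked for the first 2 class names, and they set a limit on the third. Sall1, a transcription factor of microglia, stood at 107 counts per 1000000 UMIs of the class (CPM) in control and 126 CPM in light-damaged microglia, and at 7.46 CPM or less in the other classes. Folr2, a folate receptor of perivascular macrophages, stood at 246 and 473 CPM in that class and at 2.72 and 23.3 CPM in microglia. Pf4, a chemokine, stood at 1964 and 688 CPM and at 14.2 and 2.89 CPM. In other macrophages, 157 of 244 cells in control (64.3%) and 1125 of 1166 in the light-damaged library (96.5%) had at least 50 UMIs per 10000 of 8 general myeloid markers. The 87 control cells below that had rod markers summing to 53008 CPM and markers of Mueller glia or astrocytes to 6071 CPM. Their cone markers summed to 1851 CPM, endothelial markers to 1248 CPM and markers of pericytes or smooth muscle to 1054 CPM. The control class named other macrophages is therefore partly of cells with little myeloid RNA, and its values are given below with and without them. Among cells with the myeloid markers, perivascular markers summed to 1253 CPM in control and 133 CPM in light-damaged cells, and monocyte or macrophage markers to 10208 and 18176 CPM, so the class did not hold the same mix in both libraries. In microglia, rod markers summed to 493 CPM in control and 104 CPM in light-damaged cells, with all 6 of them detected in both. The part of these differences in the results below was not tested.

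No test between groups was possible, since each was 1 library. Ratios are of CPM, light-damaged over control, with exact 95% Poisson intervals, and shares have exact intervals by the Clopper-Pearson method. Neither interval holds more than counting error, and light damage and library cannot be told apart. A gene was counted as higher or lower where it differed by over 1.5-fold and had at least 20 CPM in either library.

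Axl and Itgb5 were higher in light-damaged than in control microglia, and the other 5 genes stayed within 1.5-fold. Thus 2 of the 7 were counted higher, where 5.42% of the 5225 genes with that level were, and 0 of the 7 lower, where 6.83% were. As the 7 were chosen with earlier results of these data known, these counts are a description. In perivascular macrophages 1 of the 6 genes with at least 20 CPM was higher, Gas6, and 0 lower, against 21.8% and 15.3% of 4952 genes. In other macrophages 1 of the 7 was higher, Itgb5, and 3 were lower, Gas6, Itgav and Mfge8, against 22.9% and 28.4% of 5857 genes. Among those with myeloid markers, 6 genes had at least 20 CPM, of which 1 was higher, Itgb5, and 2 lower, Gas6 and Itgav. The shares of all genes were not counted in that subset. In perivascular and other macrophages the shares of all genes past 1.5-fold were large, so such counts say little about these genes there. The median log2 ratio of the 7 genes was 0.0013 in microglia, where that of all genes tested was -0.016.

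**Figure D1:**
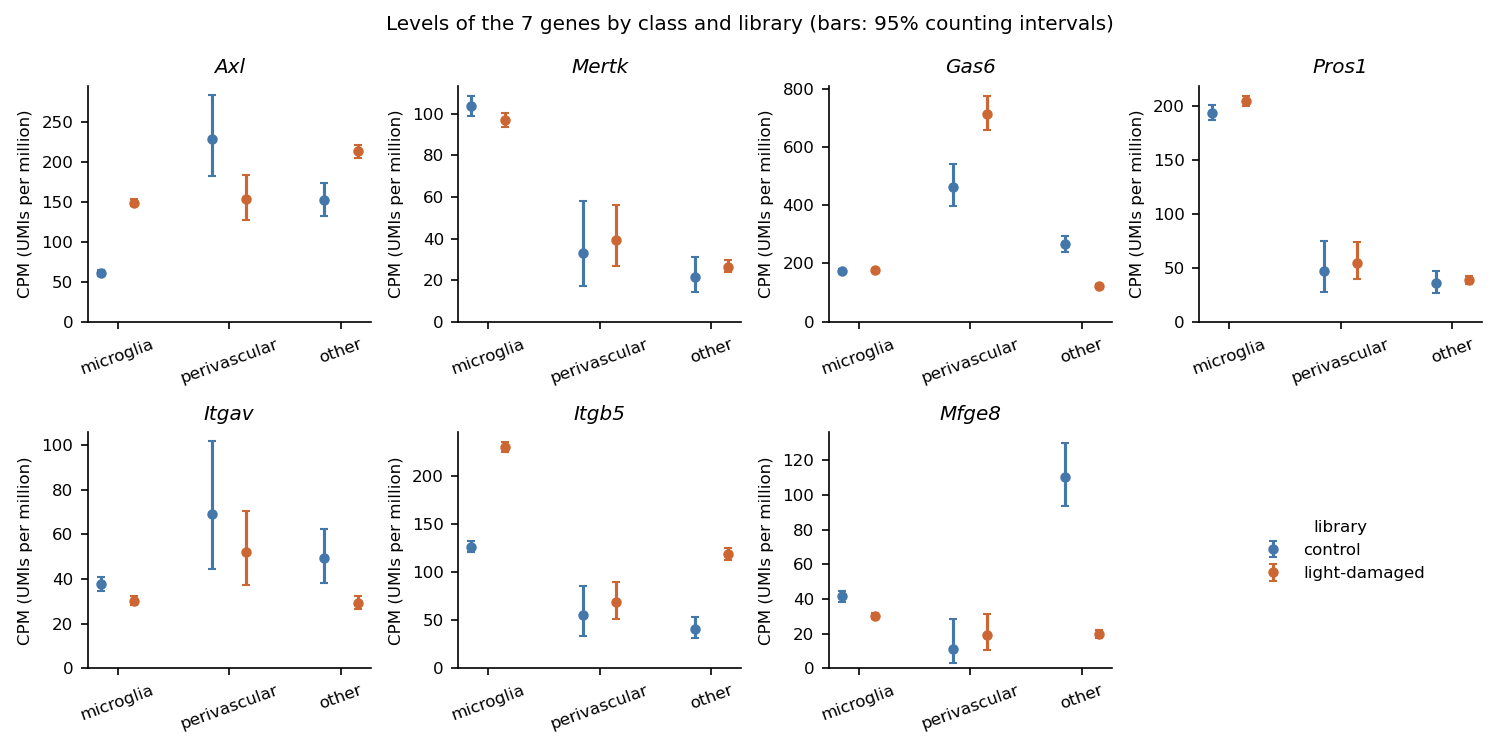
Level of each gene (CPM, linear axis from 0) in microglia, perivascular macrophages and other macrophages of the control library (blue) and the light-damaged library (orange), with bars for 95% counting intervals. Axl in microglia goes from 60.7 to 149 CPM and Itgb5 from 126 to 230 CPM, while Mertk and Pros1 are high in microglia of both libraries and low in the other classes.

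The promoters of the receptor and the integrin chain that were higher in light-damaged microglia, Axl and Itgb5, and of the receptor that was not, Mertk, are shown for comparison. Each is the 300 bases from 250 before to 50 after the gene's start in RefSeq, build GRCm38.p6, read 5′ to 3′ on the gene's strand. Capitals mark matches on either strand to the GC box GGGCGG, where Sp factors bind, or to the ETS core AGGAAG. Axl lies at chr7:25788684-25788983 on the minus strand, Itgb5 at chr16:33829415-33829714 on the plus strand and Mertk at chr2:128698665-128698964 on the plus strand.
Axl: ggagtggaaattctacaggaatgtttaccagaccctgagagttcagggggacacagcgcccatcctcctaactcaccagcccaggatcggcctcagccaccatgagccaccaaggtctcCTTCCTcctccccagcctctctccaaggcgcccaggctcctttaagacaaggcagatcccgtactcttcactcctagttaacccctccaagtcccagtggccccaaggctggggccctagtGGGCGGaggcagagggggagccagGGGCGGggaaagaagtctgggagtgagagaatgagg
Itgb5: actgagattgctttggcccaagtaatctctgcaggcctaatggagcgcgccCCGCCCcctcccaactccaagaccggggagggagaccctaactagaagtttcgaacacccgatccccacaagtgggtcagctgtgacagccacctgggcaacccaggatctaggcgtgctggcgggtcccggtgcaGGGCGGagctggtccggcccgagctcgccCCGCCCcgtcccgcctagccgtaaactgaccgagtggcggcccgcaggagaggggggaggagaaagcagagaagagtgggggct
Mertk: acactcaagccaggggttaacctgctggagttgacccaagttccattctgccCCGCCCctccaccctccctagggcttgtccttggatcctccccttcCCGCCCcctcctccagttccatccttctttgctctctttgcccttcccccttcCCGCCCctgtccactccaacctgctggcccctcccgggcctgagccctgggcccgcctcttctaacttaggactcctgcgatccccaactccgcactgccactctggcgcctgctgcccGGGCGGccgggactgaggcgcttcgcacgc
The windows held 2 GC boxes and 1 ETS core (Axl), 3 GC boxes (Itgb5) and 4 GC boxes (Mertk). No match was found in any of these 3 windows to the interferon response core GAAANNGAA, the AP-1 site TGANTCA or the STAT site TTCNNNGAA. Of 32817 promoters of this length, 35.6% held a GC box, 35.4% an ETS core, 8.55% the interferon core, 7.81% an AP-1 site and 8.29% a STAT site. Among the other 4 genes, all with an entry, the interferon core was found in the window of Itgav and the STAT site in that of Pros1. A match is a run of letters and not a shown binding site, and matches to different motifs may overlap.

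Axl, the TAM receptor, lies on chromosome 7 (ENSMUSG00000002602, mm10 chr7:25757273-25788705, minus strand, protein-coding). In microglia its level was 60.7 CPM in control (1004 UMIs) and 149 CPM in light-damaged cells (4856 UMIs). That was 2.45-fold higher (2.29 to 2.63), and the intervals of the levels did not overlap. In other macrophages it was 152 and 214 CPM, 1.40-fold higher (1.22 to 1.63). Among those with myeloid markers, Axl stood at 191 and 220 CPM, a ratio of 1.15 (0.991 to 1.34) that counting error alone could cover. The median log2 ratio of all genes in that subset was 0.27, above the Axl value of 0.20. In perivascular macrophages Axl went the other way, 229 CPM in control and 154 CPM in light-damaged cells, 1.49-fold lower (1.11 to 1.99), from 83 and 121 UMIs.

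The difference between microglia and the other classes in Axl was therefore larger in control. Control perivascular macrophages had 3.78-fold (2.98 to 4.73) and other macrophages 2.51-fold (2.14 to 2.92) the Axl level of control microglia. After light damage these ratios were 1.03 (0.855 to 1.24) and 1.43 (1.37 to 1.50). In the order of the 6 levels, control perivascular macrophages came first and control microglia last. Light-damaged microglia, control other macrophages and light-damaged perivascular macrophages did not differ from their neighbours among themselves beyond counting error. For control other macrophages this held only with the cells that have few myeloid markers. Without those cells they stood at 191 CPM (165 to 220), above light-damaged microglia at 149 CPM (145 to 153). That was 3.15-fold (2.68 to 3.68) the level of control microglia, and after light damage the like ratio was 1.47 (1.40 to 1.54).

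Mertk, the TAM receptor of resting microglia, lies on chromosome 2 (ENSMUSG00000014361, mm10 chr2:128698956-128802894, plus strand). Its level in microglia was 104 CPM in control and 96.9 CPM in light-damaged cells, a ratio of 0.935 (0.882 to 0.993). In perivascular macrophages it was 33.2 and 39.4 CPM and in other macrophages 21.6 and 26.4 CPM, with intervals that overlapped between libraries. Control microglia had 3.13-fold (1.78 to 6.06) the Mertk level of perivascular and 4.79-fold (3.32 to 7.17) that of other macrophages. The Mertk level of the cells with little myeloid RNA, 20.5 and 23.8 CPM from 7 and 9 UMIs, was like that of other macrophages. Those cells carry markers of other cell types, and whether the Mertk of other macrophages was background was not tested. The antisense gene Gm14011, which lies within Mertk, had 1 UMI in microglia of each library. Tyro3, the remaining TAM receptor, had 0 UMIs in microglia of both libraries, which allows a level of up to 0.181 CPM in control and 0.0921 CPM in light-damaged cells. It had 0 UMIs in perivascular macrophages as well, and 4 and 2 UMIs in other macrophages.

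**Figure D2:**
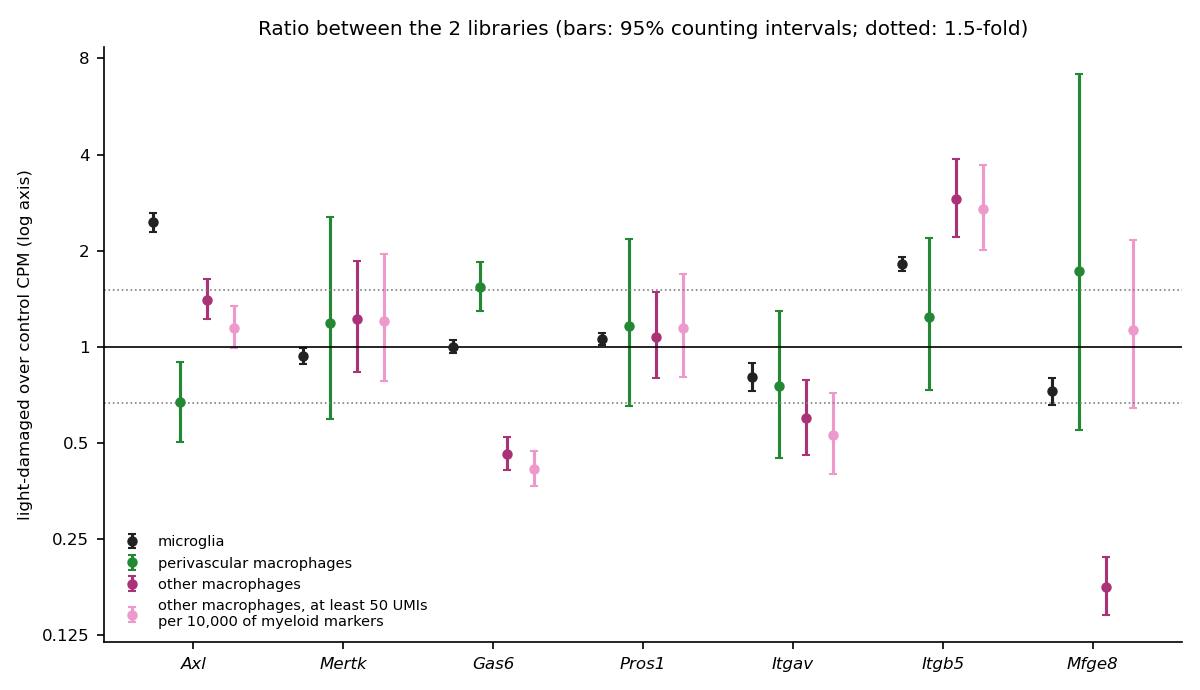
Ratio of the level in the light-damaged library to that in the control library (log axis) for each gene in microglia, perivascular macrophages, other macrophages and other macrophages with at least 50 UMIs per 10000 of myeloid markers; bars are 95% counting intervals and dotted lines mark 1.5-fold. Axl is above 1 in microglia (2.45) and below 1 in perivascular macrophages (0.671), Itgb5 is above 1 in microglia (1.82) and other macrophages (2.89), and Mfge8 in other macrophages moves from 0.177 to 1.13 once cells with few myeloid markers are left out.

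Gas6, the ligand shared by the TAM receptors, lies on chromosome 8 (ENSMUSG00000031451, mm10 chr8:13465374-13494490, minus strand). Its level in microglia was 175.7 CPM in control and 175.8 CPM in light-damaged cells, a ratio of 1.00 (0.957 to 1.05). Perivascular macrophages had the highest levels, 464 CPM in control and 715 CPM in light-damaged cells, 1.54-fold higher (1.29 to 1.84). That ratio was under 1.5 in 4 of 8 other settings and 1.22 with a perivascular cutoff of 20, which left 16 and 23 cells. In other macrophages Gas6 was 266 CPM in control and 123 CPM in light-damaged cells, 2.16-fold lower (1.92 to 2.43). Among those with myeloid markers it was 294 and 122 CPM, 2.41-fold lower (2.12 to 2.74), beside perivascular markers that summed to 1253 and 133 CPM in the same cells. Their part in it was not tested. Tmem255b, which overlaps the end of Gas6 on the opposite strand, had 0 and 1 UMIs in microglia.

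Pros1, the ligand of Mertk and Tyro3, lies on chromosome 16 (ENSMUSG00000022912, mm10 chr16:62854307-62929346, plus strand). It was a gene of microglia in both libraries, at 194 CPM in control and 205 CPM in light-damaged cells, a ratio of 1.06 (1.01 to 1.10). Perivascular macrophages had 47.0 and 54.7 CPM and other macrophages 35.8 and 38.5 CPM. Control microglia exceeded these 4.13-fold (2.57 to 7.09) and 5.41-fold (4.07 to 7.36). After light damage other macrophages had less Pros1 than perivascular macrophages, a ratio of 0.704 (0.515 to 0.986). Cells with little myeloid RNA had 43.9 and 60.9 CPM, from 15 and 23 UMIs, so Pros1 outside microglia was not above their level. Those cells carry markers of other cell types, and whether this Pros1 was background was not tested. Mertk and Pros1, a receptor and its ligand, thus both stood highest in microglia, and neither differed by 1.5-fold between the libraries there.

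Itgb5, the beta chain, lies on chromosome 16 (ENSMUSG00000022817, mm10 chr16:33829665-33949338, plus strand). In microglia its level was 126 CPM in control (2090 UMIs) and 230 CPM in light-damaged cells (7487 UMIs), 1.82-fold higher (1.73 to 1.91). In other macrophages it was 41.0 and 119 CPM, 2.89-fold higher (2.21 to 3.86), and 45.05 and 122 CPM among those with myeloid markers, 2.70-fold higher (2.01 to 3.72). The light-damaged library was the higher in both classes, with no overlap of the intervals. Perivascular macrophages had 55.3 and 68.7 CPM, a ratio of 1.24 (0.732 to 2.19) from 20 and 54 UMIs.

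Itgav, the alpha chain that pairs with Itgb5, lies on chromosome 2 (ENSMUSG00000027087, mm10 chr2:83724397-83806916, plus strand). Its ratio was below 1 in each class. In microglia it was 37.7 CPM in control and 30.3 CPM in light-damaged cells, 1.24-fold lower (1.12 to 1.38). In other macrophages it was 49.2 and 29.4 CPM, 1.67-fold lower (1.27 to 2.18), and 1.89-fold lower (1.40 to 2.51) among those with myeloid markers. Perivascular macrophages had 69.1 and 52.1 CPM from 25 and 41 UMIs, with an interval that held 1. So the mRNAs of the integrin's 2 chains differed in opposite directions between the libraries in microglia and in other macrophages. Itgb1, a beta chain that also pairs with Itgav, stood at 162 and 160 CPM in microglia and Itgb3, another, at 12.3 and 14.6 CPM.

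Mfge8, the bridge to this integrin, lies on chromosome 7 (ENSMUSG00000030605, mm10 chr7:79133768-79149060, minus strand). In microglia its level was 41.4 CPM in control and 30.1 CPM in light-damaged cells, 1.38-fold lower (1.25 to 1.52). In other macrophages it was 110 and 19.6 CPM, 5.64-fold lower (4.57 to 6.94). Among the cells with myeloid markers it was 13.01 and 14.6 CPM, a ratio of 1.13 (0.642 to 2.15). The 87 control cells with few myeloid markers had 135 of the 148 UMIs, a level of 395 CPM. They also had the rod, glial, cone, endothelial and pericyte markers given above, and which cells the Mfge8 came from was not tested. Perivascular macrophages had 11.1 and 19.1 CPM, from 4 and 15 UMIs.

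The share of cells with a UMI was compared after each cell was thinned at random to 2700 UMIs, which left out 439 control microglia and no light-damaged ones. Axl was then found in 13.7% (12.5 to 15.01) of control and 29.7% (28.4 to 31.1) of light-damaged microglia. Itgb5 was found in 27.1% (25.5 to 28.8) and 42.8% (41.4 to 44.3). Both were in more cells, and also in more cells with 2 or more UMIs, 1.50% and 6.53% for Axl and 4.49% and 13.1% for Itgb5. Mertk was found in 24.0% and 23.7%, Gas6 in 36.6% and 34.8%, and Pros1 in 41.3% and 42.1% of microglia. Itgav was found in 9.67% and 7.94% and Mfge8 in 10.4% and 8.15%. Without thinning, the shares were 23.3% and 57.1% for Axl and 42.3% and 73.0% for Itgb5. For Mertk, whose thinned shares were near equal, they were 38.2% and 48.0%.

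Shares in the other classes were read against cells with few myeloid markers, 39 control and 41 light-damaged cells after thinning, whose median depth before it was 2381 and 6325 UMIs over all 87 and 41. In them Axl was found in 10.3% (2.87 to 24.2) and 0%, Mertk in 5.13% and 4.88%, Pros1 in 12.8% and 14.6% and Itgb5 in 15.4% (5.86 to 30.5) and 7.32%. Axl was found in 43.3% (35.0 to 51.9) and 42.5% (39.6 to 45.4) of other macrophages with myeloid markers, and in 41.3% and 37.3% of perivascular macrophages, all above that. Over the whole class of other macrophages, which holds the cells with few myeloid markers, the shares were 36.1% and 41.0%. Mertk, 7.09% and 6.49% of other macrophages with myeloid markers, and Pros1, 9.93% and 9.96%, lay within the intervals of those cells. Itgb5, at 8.51% (4.48 to 14.4) in control, was no more frequent than in them, and at 27.7% (25.1 to 30.4) after light damage it was. The whole class had Itgb5 in 10.0% and 27.0%. Gas6 was in 80.4% (66.1 to 90.6) and 86.7% (77.5 to 93.2) of perivascular macrophages, the most frequent of the 7 there, and in 53.2% and 20.9% of other macrophages with myeloid markers (46.1% and 21.3% of the whole class).

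**Figure D3:**
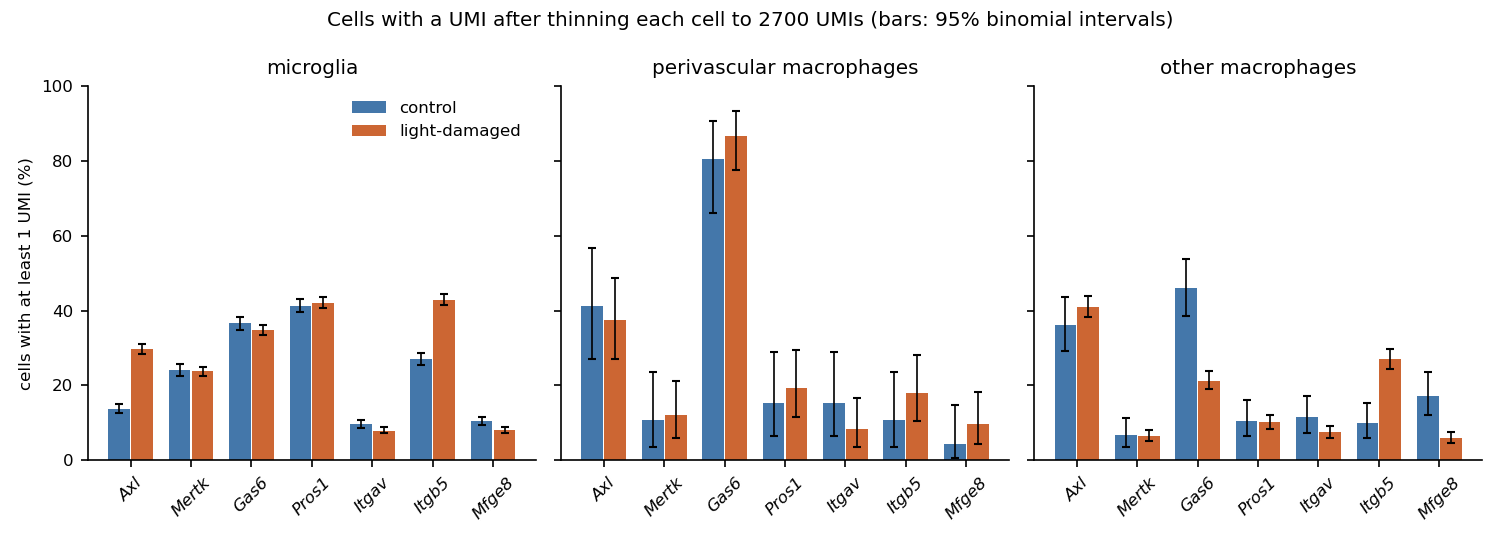
Share of cells (%) with at least 1 UMI of each gene after thinning to 2700 UMIs, in the control (blue) and light-damaged (orange) library, by class, with 95% binomial intervals. In microglia only the bars of Axl (13.7% and 29.7%) and Itgb5 (27.1% and 42.8%) are over 1.5-fold apart, and Gas6 is in 80.4% and 86.7% of perivascular macrophages.

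Mertk was about as frequent in microglia with a UMI of Axl as in those without. In thinned control microglia Mertk was found in 24.1% (19.98 to 28.5) of those with a UMI of Axl and in 24.0% (22.4 to 25.7) of those without. In light-damaged microglia the shares were 23.9% and 23.6%. Microglia with neither receptor detected at this depth were 65.6% (63.8 to 67.3) of control and 53.7% (52.2 to 55.1) of light-damaged cells, and those with both 3.30% and 7.12%. Itgb5 was found in 43.5% of light-damaged microglia with Axl and in 42.6% of those without. In light-damaged other macrophages it was found in 33.9% (29.7 to 38.3) of those with a UMI of Axl and in 22.2% (19.2 to 25.5) of those without. Cells were not replicates here, and these shares are descriptions of each library.

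Within microglia, the genes were also followed along 3 sums of other genes per cell, each cut into 4 ranges of near equal cell number in its library. These are ranges, not cell types. From the lowest to the highest range of 12 interferon-induced genes (Irf7, Ifit1, Isg15 and others), Axl went from 43.4 to 93.0 CPM in control, 2.14-fold (1.78 to 2.59). It went from 107 to 198 CPM in light-damaged cells, 1.86-fold (1.71 to 2.03). Itgb5 did not follow that sum, with ratios of 0.870 (0.767 to 0.988) and 1.03 (0.964 to 1.10), nor did Pros1, with 0.942 and 0.983. Mertk was lower at the top of it in both libraries, with ratios of 0.817 (0.711 to 0.937) and 0.873 (0.789 to 0.965). In light-damaged microglia Gas6 was lower there, 0.851 (0.789 to 0.918), as was Itgav, 34.9 and 23.9 CPM. The Gas6 ratio in control was 0.918 (0.827 to 1.02). The lowest control range was the 959 cells with 0 UMIs of these genes, whose median depth of 3786 UMIs was below that of the other control ranges.

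Along the 5 resident microglia genes that also set the class, Axl was lowest where they were highest. Its level was 87.4 CPM in the lowest and 42.8 CPM in the highest control range, and 173 and 124 CPM in light-damaged microglia. Mertk went the other way, from 94.2 to 118 CPM in control and from 79.6 to 112 CPM in light-damaged cells, 1.25-fold (1.09 to 1.44) and 1.40-fold (1.27 to 1.55). Pros1 was higher at its top as well, 1.37-fold (1.24 to 1.52) and 1.27-fold (1.18 to 1.36). Itgb5 was 133 and 117 CPM in control and 212 and 251 CPM in light-damaged cells. Along 10 genes of the lesion-associated state (Cst7, Lpl, Spp1 and others), light-damaged microglia had Gas6 at 150 and 213 CPM, 1.42-fold (1.32 to 1.53), and Itgb5 at 194 and 261 CPM, 1.34-fold (1.26 to 1.44). In control microglia these 2 ratios were 1.05 (0.942 to 1.16) and 1.08 (0.954 to 1.22).

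**Figure D4:**
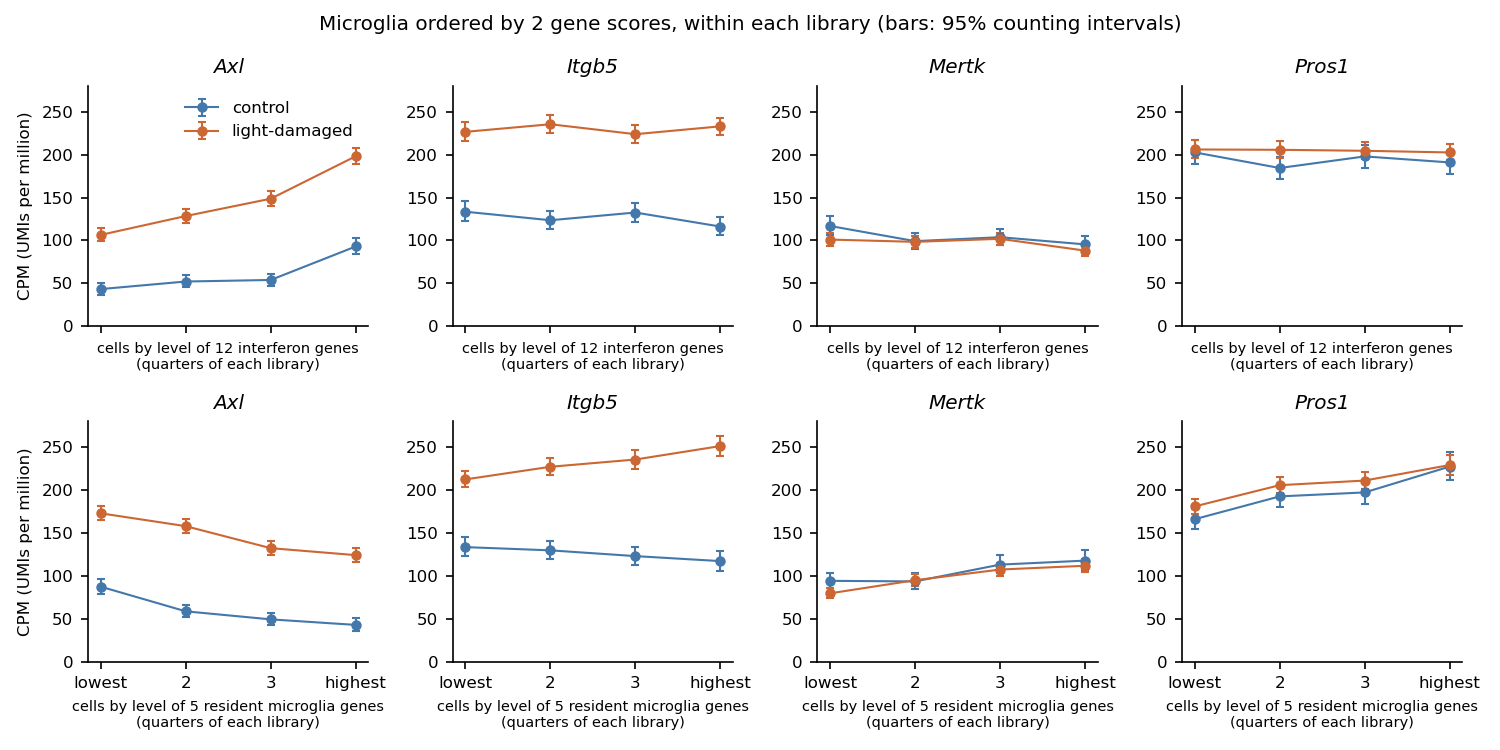
Level (CPM, linear axis from 0) of Axl, Itgb5, Mertk and Pros1 in microglia of each library, in 4 ranges of cells by the summed level of 12 interferon genes (top) or 5 resident microglia genes (bottom), with 95% counting intervals. Axl is higher toward the top of the interferon genes in both libraries (43.4 to 93.0 and 107 to 198 CPM) and lower toward the top of the resident genes, Itgb5 is near flat along the interferon genes at 2 separate levels, and Mertk and Pros1 overlap between the libraries in most ranges.

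Microglia of both libraries were then compared range by range along these sums, using the bounds of the control ranges for both. In the 4 interferon ranges, Axl was 2.71-fold (1.92 to 3.75), 2.02-fold (1.60 to 2.54), 2.02-fold (1.70 to 2.41) and 1.67-fold (1.50 to 1.86) higher in light-damaged cells, from the lowest range to the highest. Itgb5 was 1.25-fold (0.953 to 1.61), 1.82-fold, 1.70-fold and 1.99-fold (1.81 to 2.19) higher. The lowest range held only 85 light-damaged cells and the highest 3721, against 959 and 844 control cells. The highest range has no upper bound, and sums were not alike in it. Control cells there had a median sum of 8.63. The ranges of light-damaged cells that lay wholly within it had medians of 11.9, 22.1 and 45.3. Since Axl was higher toward the top of this sum, its ratio of 1.67 there is not one at like levels. In the 4 resident ranges the ratios were 1.80 to 2.55 for Axl and 1.68 to 1.998 for Itgb5. Each of these ratios was above 1, and its interval held 1 only for Itgb5 in the lowest interferon range. The lowest resident range held 3018 light-damaged and 845 control cells, and the control cells had a median sum of 39.8. The ranges of light-damaged cells lying wholly or partly in it had medians of 26.4, 36.6 and 46.6. Most light-damaged cells in it came from the 2 ranges with medians of 26.4 and 36.6, of 1099 cells each, both below the control median. Since Axl was lower toward the top of this sum, its ratio of 1.80 there is not one at like levels. How alike the sums were within the other resident ranges was not tested.

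Levels of cells near the class cutoffs did not always lie between those of the classes. In control, Axl was 97.9 CPM in the 155 microglia with 20 to 30 UMIs per 10000 of the class genes and 170 CPM in the 142 cells with 10 to 20. In light-damaged cells these levels were 176 CPM in 906 cells and 203 CPM in 781 cells. Mertk was 91.5 and 43.2 CPM in control and 76.8 and 53.1 CPM in light-damaged cells in the same ranges. Itgb5 was 142 and 87.5 CPM in control, the first above any control class, and 209 and 168 CPM in light-damaged cells. For perivascular macrophages, Gas6 was 383 CPM just inside the cutoff and 412 CPM just outside it in control, and 664 and 391 CPM in light-damaged cells.

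Other genes of dying-cell clearance were taken from 5 lists of 89 genes, of which 44 had at least 20 CPM in microglia. In microglia 8 of the 44 were higher and 1 lower, where 5.42% and 6.83% of all genes were, and 35 stayed within 1.5-fold. The median log2 ratio of the 44 was 0.13, against -0.016 over all genes. Of the 8, Itgax, Lgals3 and Abca1, given below, reached 20 CPM only in the light-damaged library. The lists were chosen with earlier results of these data known, so these counts are a description. Among 11 receptors, Itgam, the alpha chain of complement receptor 3, was 240 and 460 CPM (1.92-fold, 1.85 to 1.99) and Itgax, the alpha chain of complement receptor 4, 13.4 and 20.9 CPM (1.55-fold). The phosphatidylserine receptor Cd300a was the 1 gene counted lower, at 98.9 and 64.2 CPM. Trem2, a lipid receptor, was 2393 and 2247 CPM.

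Of 7 bridges and opsonins, 3 were higher, again beside 5.42% of all genes for this and the next groups. Lgals3, which encodes galectin-3, went from 5.20 to 39.6 CPM (7.62-fold, 6.12 to 9.59) and Apoe, a lipid carrier, from 2390 to 10215 CPM (4.27-fold, 4.23 to 4.32). Calr, which encodes calreticulin, was 391 and 661 CPM (1.69-fold, 1.65 to 1.74). The 3 chains of C1q, which tags dying cells, stayed within 1.5-fold, with ratios from 1.10 to 1.17. Of 11 engulfment genes 1 was higher, the cholesterol exporter Abca1 (15.6 and 31.3 CPM). Adam10 and Adam17, proteases that shed Axl and Mertk, had ratios of 1.27 and 1.09. Of 6 signals that attract or hold off phagocytes 1 was higher, the inhibitory receptor Lilrb4a (32.1 and 52.7 CPM). In perivascular macrophages 19 of 51 list genes were higher and 3 lower, and in other macrophages 29 of 55 and 9, beside the shares of all genes given above. The counts for other macrophages include the cells with few myeloid markers.

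The genes most like each of the 7 were sought over the 6 levels (2 libraries by 3 classes, as log2(CPM + 10), Pearson r over genes with at least 50 CPM somewhere). They are a description, since r rests on only 6 points and the 3 classes of a library came from 1 pool. Axl was nearest to Eif3a (r = 0.990), a subunit of a translation initiation factor, followed by Smc4 and Oas1a, and Eif3a was the 1 gene of 3415 with r over 0.95. Mertk was nearest to Dock8 (0.998), Il6ra and Anxa3, and Pros1 to Nav3 (0.994), Scamp2 and Ifngr1, with 88 and 110 genes over 0.95. Gas6 was nearest to Pomk (0.993), Egr2 and Baiap2, Itgav to Runx1 (0.994), Smox and Foxo3, Itgb5 to Rpl21 (0.994), Sema4d and Pes1, and Mfge8 to Vezf1 (0.992), Srsf4 and Pgrmc1. For Mfge8, the level of control other macrophages, 110 CPM, came mostly from the cells with few myeloid markers.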

How the data were processed

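The authors deposited, for each of 2 libraries, a matrix of UMI counts per gene and barcode with lists of genes and barcodes. Cell Ranger 2.0.0 and the build mm10 are named in the submitters' processing notes, and the sources used here give no further settings. From these counts, cells were kept from 300 genes upward where mitochondrial UMIs were no more than 10% (3948 control, 6799 light-damaged). Scrublet (in scanpy 1.11.5) gave 0 doublets by its automatic threshold in both libraries, so that threshold was not used. Instead the cells with its highest scores were removed, at 0.8% per 1000 barcodes (128 and 372 cells). How well these scores mark doublets was not tested. Classes were cut by summed markers per 10000 UMIs, and counts were summed per class and library and given as CPM. Intervals came from scipy 1.17.1, at 95%. Positions came from GENCODE M21 (GRCm38) and promoters from RefSeq (GRCm38.p6).

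Named genes were the 7 members, every gene of the 5 lists past 1.5-fold with at least 20 CPM in microglia, the 3 genes most like each member, and markers, except 1 list gene that is not reported here. Genes named beside these (Tyro3, Itgb1, Itgb3, Trem2, the C1q chains, Adam10 and Adam17) were added with their values known. The members, lists and scores were chosen with earlier results of these data known. Alternatives covered the filter, doublets, cutoffs, scaling, depth and minimum level. The calculations were tested on simulated data.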

Additional observations from a re-analysis of the deposited data

Results flagged for a closer look

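Axl and Gas6 are listed because their ratios between the libraries (light-damaged over control) pointed in opposite directions in different classes. Axl was 2.45 in microglia and 1.40 in other macrophages but 0.671 in perivascular macrophages, and Gas6 was 1.54 in perivascular but 0.462 in other macrophages. The differences between classes were not tested, since there was 1 library per group.

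The 142 control and 781 light-damaged cells between the microglia cutoff and the other classes belong to none of the 3 classes compared. In them Itgb5 was 1.92-fold (1.52 to 2.47), Pros1 1.44-fold (1.12 to 1.90) and Axl 1.19-fold (1.00 to 1.43) higher in the light-damaged library. Itgav was 1.89-fold (1.35 to 2.59) and Gas6 1.70-fold (1.47 to 1.96) lower in them.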

How the results depend on the processing

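Of 175 ratios of single genes recomputed with other settings, 157 stayed within the counting interval of the value reported and were not reversed. Another 16 moved, and 2 were reversed, crossing 1 from a ratio past 1.5-fold. On the other side of 1 fell 15 of the 175, 5 of them for Gas6 in microglia, whose ratio was 1.00, and 2 of them from ratios past 1.5-fold (both Mfge8). Axl in microglia ranged from 2.34 to 2.48 and Itgb5 from 1.68 (mean of CPM per cell) to 1.95 (microglia cutoff 40), both past 1.5-fold in all 10 settings. Gas6 in perivascular macrophages was 1.22 with a perivascular cutoff of 20, where Mfge8 turned to 0.981. Mfge8 in other macrophages turned to 1.13 with myeloid markers required. Axl in other macrophages ranged from 1.13 to 1.79. The count of the 7 genes higher in perivascular macrophages was 0 with cells meeting both cutoffs counted in both or after division by the median ratio, and 2 with the stricter cell filter, the mean of CPM per cell or cells as deep as the shallowest light-damaged barcode. The last setting was chosen after seeing the data. The count lower there was 1 with the cutoff of 20, the mean of CPM per cell, thinning or the median ratio. In other macrophages 2 were higher by the mean of CPM per cell. Clearance genes higher in microglia numbered 5 with a minimum of 50 CPM, 17 with none beyond 1 UMI and 4 at 2-fold, and those lower 5 with no minimum and 0 at 2-fold. These shifts follow from the cells or genes left in where a cutoff, minimum or fold was changed, and elsewhere the cause was not tested. Shares of microglia with a UMI depend on depth, and all 28 computed without thinning or at 2000 UMIs moved (Axl 10.3% and 24.2% at 2000 UMIs). Perivascular macrophages, with 52 and 83 cells, have the fewest cells of the 3 classes. No paired analysis was possible because each group was 1 library, and for the same reason no replicate could be left out.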
